A study of Mus musculus with 12 samples.

Results

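The genes described here are 9 regulators and initiators of apoptosis, taken by name from 20775 genes in each of the RPKM tables (read counts scaled by transcript length and library depth): Bcl2, Bcl2l1, Mcl1, Bak1, Bid, Bcl2l11, Bnip3, Casp8 and Casp9. They were followed after loss of Med30, which encodes a subunit of Mediator, the complex that connects transcription factors with RNA polymerase II. The embryonic samples were E10.5 hearts from C57BL/6 mice: 3 Med30 cKO, in which a Tnnt-Cre driven from the cardiac troponin T promoter recombined the Med30 f/f alleles, and 3 Ctrl. The adult samples were isolated cardiomyocytes from mice 3 months of age, collected 4 weeks after tamoxifen: 3 Med30 icKO, which carried the tamoxifen-activated α-MHC-MerCreMer with Med30 f/f, and 3 Ctrl. By the study's text the Ctrl were Cre-negative, as littermates of the cKO or as adult Med30 f/f mice, and the floxed segment held exon 1, whereas the labels name all Ctrl as wild type, so an effect of Cre itself cannot be told apart from loss of Med30. The labels give heart as the source of every sample, and the extraction protocol states that cardiomyocytes were used for the adult stage. No source used here says whether hearts were pooled, so p-values measure only the spread between these samples, which may be partly technical.

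In the mitochondrial pathway of apoptosis, the antiapoptotic proteins BCL2, BCL-XL (encoded by Bcl2l1) and MCL1 hold the pore-forming effectors BAX and BAK (Bak1) in check. BH3-only proteins such as BIM (Bcl2l11) and BID engage them when a cell is stressed, after which released cytochrome c assembles with APAF1 and activates caspase 9. Death receptors instead activate caspase 8, which cleaves BID and so connects the 2 routes. Cardiomyocytes rarely divide after birth, and MCL1 is known to be needed for their survival. BNIP3 is an atypical BH3-only protein that is best known for mitophagy and as a target of hypoxia signalling.

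All 9 genes were matched by symbol to the GENCODE annotation of GRCm38. Bcl2 spans chr1:106538178-106714274 on the minus strand, Bcl2l1 spans chr2:152780668-152831728 on the minus strand, and Mcl1 is a short gene at chr3:95658788-95663176 on the plus strand. The effector gene Bak1 is at chr17:27019810-27029009, minus strand. Among the BH3-only genes, Bid is at chr6:120891930-120916853 on the minus strand, Bcl2l11 at chr2:128126038-128162547 on the plus strand and Bnip3 at chr7:138890836-138909519 on the minus strand. The initiator caspase genes lie on the plus strand, Casp8 at chr1:58795374-58847503 and Casp9 at chr4:141793612-141815976. Exons of D630008O14Rik overlap Bcl2 on the other strand, as do those of Ggnbp1 for Bak1, Bcl2l13 for Bid, Gm45507 for Bnip3, and Cela2a and Ctrc for Casp9. The strand setting of the counting is not given in the sources used here, so reads of these overlapping pairs cannot be told apart.

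Promoters of the 3 members whose values the results turn on are shown as the 250 bases before the RefSeq transcription start (GRCm38.p6), 5′ to 3′ on the strand of the gene. Capitals mark the GC box GGGCGG or its reverse complement CCGCCC and the hypoxia response element core ACGTG or its reverse complement CACGT. The Bcl2 window is chr1:106714291-106714540 on the minus strand, the Mcl1 window is chr3:95658471-95658720 on the plus strand and the Bnip3 window is chr7:138909507-138909756 on the minus strand.
Bcl2: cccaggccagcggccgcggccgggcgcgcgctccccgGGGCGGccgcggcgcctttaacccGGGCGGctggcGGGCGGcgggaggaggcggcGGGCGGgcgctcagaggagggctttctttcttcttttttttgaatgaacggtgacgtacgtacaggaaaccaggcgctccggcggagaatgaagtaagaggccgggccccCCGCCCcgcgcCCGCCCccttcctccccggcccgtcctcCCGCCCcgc
Mcl1: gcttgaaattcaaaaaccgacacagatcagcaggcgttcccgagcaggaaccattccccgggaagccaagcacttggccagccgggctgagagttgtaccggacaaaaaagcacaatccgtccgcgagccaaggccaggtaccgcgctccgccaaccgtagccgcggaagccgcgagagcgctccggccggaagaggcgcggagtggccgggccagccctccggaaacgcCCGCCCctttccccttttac
Bnip3: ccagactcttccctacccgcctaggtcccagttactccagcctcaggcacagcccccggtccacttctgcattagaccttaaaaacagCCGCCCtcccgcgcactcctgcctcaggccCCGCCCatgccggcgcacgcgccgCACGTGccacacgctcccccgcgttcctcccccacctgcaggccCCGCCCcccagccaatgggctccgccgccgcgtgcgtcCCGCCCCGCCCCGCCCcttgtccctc
The Bcl2 window held 7 GC boxes, the Bnip3 window 6 and the Mcl1 window 1. Of 32851 RefSeq promoter windows, 32.7% held at least 1 GC box. The core ACGTG was present in the Bnip3 window, once on each strand as the overlapping palindrome CACGTG, and in no window of the other 8 members. It was found in 16.6% of all windows. The CCAAT box (CCAAT or ATTGG, 33.8% of all windows) and the cyclic AMP response half-site (TGACG or CGTCA, 17.8%) were also searched on both strands. Bnip3 held 1 CCAAT box and Bcl2 held 1 half-site, while the Mcl1 window held neither. These are matches of letters and say nothing of binding. The Bnip3 window ends just inside the GENCODE gene, since the annotations place its start differently.

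Depth recovered from the spacing of low values was 13.7 to 19.9 M reads per E10.5 library and 12 to 17.5 M reads per adult library. The targeted gene Med30 fell in every knockout library, from 10.6, 13.3 and 11.3 RPKM to 1.38, 2.02 and 1.0 RPKM at E10.5 and from 7.66, 7.45 and 7.66 RPKM to 3.81, 3.16 and 1.82 RPKM in the adult. The 20 most abundant genes held 24.8 to 25.4% of all RPKM in adult Ctrl and 11.5 to 13.1% in icKO, against 8.55 to 10.6% over the E10.5 libraries. The log2 fold change of the median tested gene was 0.57 in the adult as deposited and 0.33 with those 20 genes left out of the scaling. It was 0.04 after median-ratio scaling, which divides each library by the median of its ratios to the geometric mean of the libraries. That median is taken over genes above 0 RPKM in every library compared, before the filter on mean RPKM. At E10.5 the log2 fold change of the median tested gene was -0.13 as deposited and -0.01 after median-ratio scaling. Adult fold changes of the tested members are given under both scalings.

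**Figure D1:**
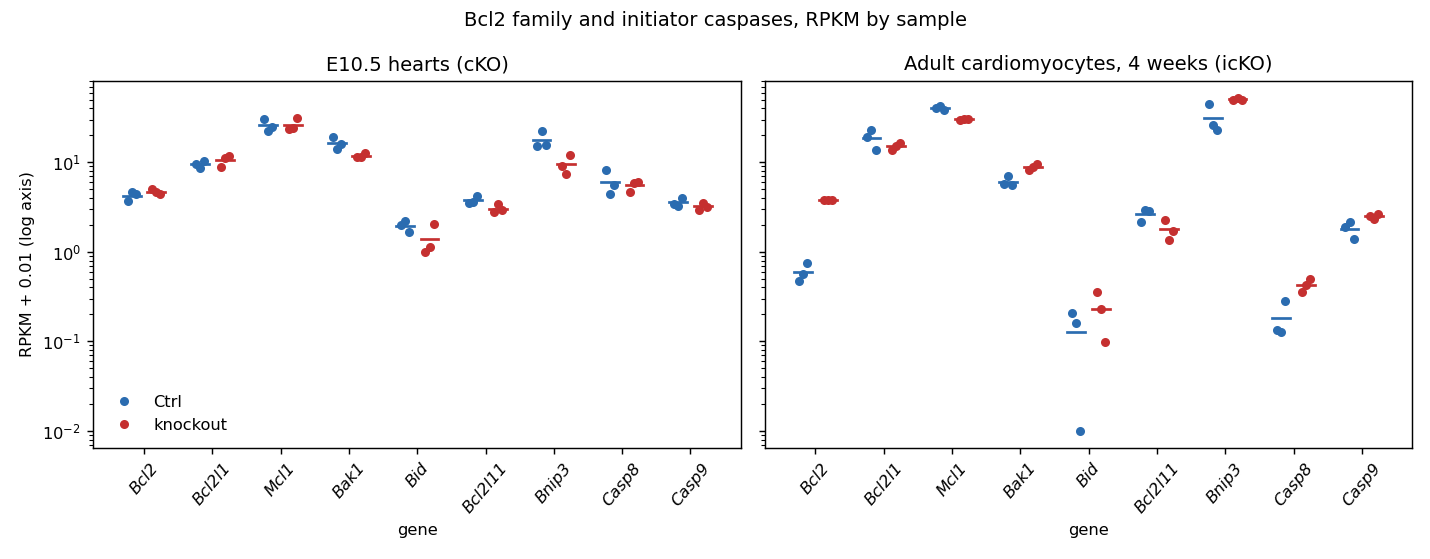
RPKM of the 9 genes in every sample on a log axis, with 0.01 added so that the single value of 0 (Bid, adult Ctrl replicate 3) can be drawn; dots are samples and lines are group means of 3. In adult cardiomyocytes the 3 Bcl2 dots of icKO (3.74 to 3.78 RPKM) lie far above those of Ctrl (0.461 to 0.746 RPKM), whereas at E10.5 the Bcl2 dots of cKO and Ctrl overlap.

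Since RPKM is a level per transcript length, the members could be ranked within each group. Mcl1 had the highest level in E10.5 Ctrl, at 26.0 ± 4.23 RPKM (SD, n = 3), and its range lay above that of every other member. Bnip3 and Bak1 followed with ranges that overlapped, then Bcl2l1, and then Casp8, Bcl2, Bcl2l11 and Casp9, each overlapping its neighbour in the order. Bid was lowest, at 1.94 ± 0.263 RPKM. In adult Ctrl, Mcl1 (40.2 ± 2.10 RPKM), Bnip3 (31.5 ± 11.8 RPKM) and Bcl2l1 (18.8 ± 4.78 RPKM) led the order, and each overlapped the next. Bcl2 stood at seventh place there, at 0.589 ± 0.145 RPKM, above only Casp8 and Bid. In icKO cardiomyocytes Bnip3 passed Mcl1 to the first place, with 51.1 ± 1.46 against 30.3 ± 0.477 RPKM, and Bcl2 moved above Casp9 and Bcl2l11. The tables of the 2 stages were made separately, so levels were compared within a stage only.

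The adult comparison asked how these genes stood once Med30 had been deleted in mature cardiomyocytes. Bcl2 rose and Mcl1 and Bcl2l11 fell in icKO under both scalings. Bak1, Bnip3 and Casp9 rose in RPKM as deposited but not after median-ratio scaling, and of these 2 scalings Bcl2l1 fell only after the latter. With the 20 most abundant genes left out of the scaling, limma still called Bak1 (log2 fold change 0.31, adjusted p = 0.0472) and Bnip3 (0.51, 0.0453) higher. It called Bcl2l1 lower (-0.52, 0.0252) and did not call Casp9 (0.23, 0.279). The median gene was at 0.33 there, and 4756 genes were called higher and 2253 lower. By limma on log2(RPKM + 0.1), with Benjamini-Hochberg adjustment over all 9517 genes whose mean exceeded 1 RPKM, 4 of the 7 tested members were higher and 2 were lower, a call being an adjusted p under 0.05. The same calls were made for 60.6% and 18.1% of the genes tested. After median-ratio scaling 1 member was higher and 3 were lower, beside 34.7% and 33.5% of all genes. Bcl2 alone among the members passed with a log2 fold change beyond 1 as deposited, a size that 28.0% of genes reached upwards and 8.45% downwards. After median-ratio scaling 2 members passed beyond 1, Bcl2 higher and Bcl2l11 lower. Of the 9517 genes, 1106 did so upwards and 1476 downwards under that scaling. The median log2 fold change of the 7 was 0.47 as deposited, and that of all genes was 0.57.

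Among the antiapoptotic genes, Bcl2 measured 0.461, 0.559 and 0.746 RPKM in the 3 adult Ctrl and 3.74, 3.78 and 3.76 RPKM in the 3 icKO. Every icKO library lay above every Ctrl library, and the icKO libraries were nearly alike. Its mean level rose 6.39-fold, and the fitted log2 fold change was 2.51 ± 0.191 (SE, adjusted p = 3.79e-06 by limma), which is 1.94 above the median gene. After median-ratio scaling the log2 fold change was 2.01 (95% interval 1.58 to 2.45; limma adjusted p = 2.47e-05). The levels correspond to about 43.6 to 90.8 reads per Ctrl library and 323.7 to 454.5 per icKO library. Bcl2 passed in each of the 6 limma fits that left out 1 library, with log2 fold changes of 2.37 to 2.67.

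Mcl1, whose short-lived protein guards cardiomyocyte mitochondria, moved the other way. It measured 40.4, 42.2 and 38.1 RPKM in Ctrl and 29.7, 30.4 and 30.6 RPKM in icKO. All icKO libraries were below all Ctrl libraries. Its log2 fold change was -0.41 ± 0.0748 (limma adjusted p = 0.000824) as deposited and -0.95 ± 0.0756 (limma adjusted p = 9.62e-06) after median-ratio scaling. Where 1 library was left out, the log2 fold change by limma was -0.45 to -0.37 as deposited and -1.0 to -0.91 after median-ratio scaling, and Mcl1 passed each time.

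Bcl2l1, the gene of BCL-XL, measured 19.4, 23.2 and 13.7 RPKM in Ctrl and 13.8, 15.2 and 16.5 RPKM in icKO. The groups overlapped, since Ctrl replicate 3 was below every icKO library. The log2 fold change was -0.28 as deposited (95% interval -0.67 to 0.12; limma adjusted p = 0.174) and -0.81 after median-ratio scaling (limma adjusted p = 0.00367). Without Ctrl replicate 3 the value as deposited was -0.49 (limma adjusted p = 0.00536), so that library decided the call.

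The effector gene Bak1 measured 5.66, 6.95 and 5.61 RPKM in Ctrl and 8.29, 8.76 and 9.58 RPKM in icKO, with no overlap. Its log2 fold change was 0.54 ± 0.116 (limma adjusted p = 0.00204), or -0.02 relative to the median gene. After median-ratio scaling it was 0.01 (95% interval -0.26 to 0.28; limma adjusted p = 0.938). The rise of Bak1 was thus present in RPKM as deposited and not relative to the bulk of genes.

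Bcl2l11, which encodes the BH3-only activator BIM, measured 2.17, 2.95 and 2.85 RPKM in Ctrl and 2.26, 1.35 and 1.72 RPKM in icKO. The highest icKO library lay just above the lowest Ctrl library. The log2 fold change was -0.57 ± 0.209 (limma adjusted p = 0.0308), and -1.09 ± 0.202 after median-ratio scaling (limma adjusted p = 0.00134). As deposited, the call was lost without Ctrl replicate 2 (adjusted p = 0.105 by limma), Ctrl replicate 3 (0.081), icKO replicate 2 (0.106) or icKO replicate 3 (0.0679). After median-ratio scaling Bcl2l11 passed in all 6 such fits.

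Bnip3 measured 45.0, 26.4 and 23.1 RPKM in Ctrl and 50.3, 52.7 and 50.2 RPKM in icKO. All icKO libraries were higher, and Ctrl replicate 1 came close to them. The log2 fold change was 0.76 ± 0.209 (limma adjusted p = 0.0086) as deposited and 0.22 after median-ratio scaling (95% interval -0.28 to 0.71; limma adjusted p = 0.396). Without Ctrl replicate 1 the deposited values gave 1.04 by limma, the highest of the fits that left out 1 library. Without the same library the median-ratio value was 0.49 and passed (limma adjusted p = 0.00211), so that Ctrl replicate 1 decided this call, whereas the 5 other fits of that kind did not pass. The initiator caspase gene Casp9 measured 1.90, 2.15 and 1.37 RPKM in Ctrl and 2.50, 2.34 and 2.65 RPKM in icKO, again without overlap.

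The log2 fold change of Casp9 was 0.47 ± 0.182 (limma adjusted p = 0.0408) as deposited and -0.05 after median-ratio scaling (limma adjusted p = 0.819). Its call as deposited held by limma without Ctrl replicate 2 (0.0247) and was lost without Ctrl replicate 1 (0.0549), Ctrl replicate 3 (0.137) or icKO replicate 1 (0.0852), 2 (0.0618) or 3 (0.1).

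Bid and Casp8, the pair that links death receptors to mitochondria, were both under the filter of 1 RPKM in adult cardiomyocytes and were not tested in the limma fit. Casp8 measured 0.125, 0.118 and 0.269 RPKM in Ctrl and 0.343, 0.421 and 0.484 RPKM in icKO, or about 4.3 to 18.2 reads per library. The groups did not overlap, and the exact two-sided permutation p was 0.1, the smallest that 3 against 3 can give. With no filter on RPKM, limma gave Casp8 a log2 fold change of 0.97 (adjusted p = 0.0179). In that fit 6932 of 16289 genes were called higher, and the median gene was at 0.36. The 0.1 RPKM added before taking log2 is near the lowest Ctrl values of Casp8. The unfiltered fit was not run with median-ratio scaling, so Casp8 and Bid have values as deposited only. Bid measured 0.200, 0.150 and 0 RPKM in Ctrl and 0.343, 0.221 and 0.088 RPKM in icKO, and its groups overlapped. At this depth 3 reads of Bid correspond to 0.0781 to 0.114 RPKM, and the difference of Bid did not exceed its spread at this depth (exact two-sided permutation p = 0.4; log2 difference 0.61 by limma with no filter, 95% interval -0.45 to 1.67, adjusted p = 0.3).

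**Figure D2:**
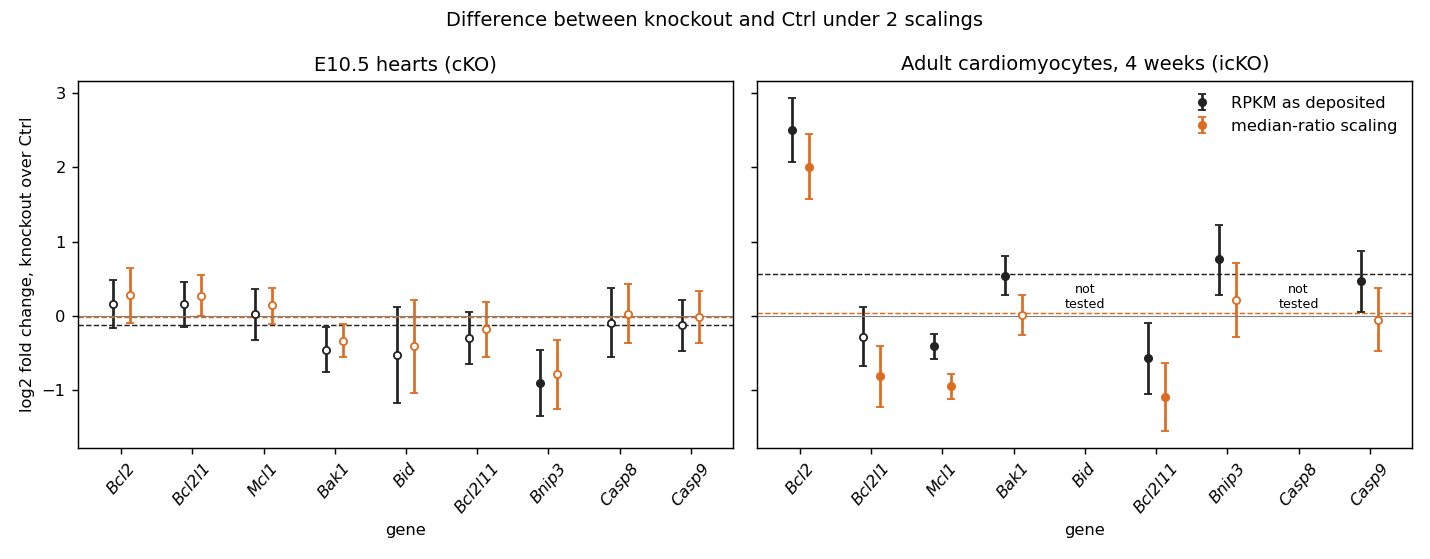
Log2 fold change (knockout over Ctrl) of each member with its 95% confidence interval from limma, on log2(RPKM + 0.1), for RPKM as deposited (black) and after median-ratio scaling (orange). Filled dots have an adjusted p under 0.05, open dots do not, and dashed lines mark the median gene. In the adult panel Bcl2 sits at 2.51 and 2.01 above all other members, while Bak1 and Casp9 lie near the median gene under both scalings.

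At E10.5 the question was the same for the embryonic heart, in which Med30 was deleted in cardiomyocytes of a mixed tissue. Bnip3 fell as deposited, and no other member passed the test. By limma over 10885 genes, 0 of the 9 members were higher and 1 was lower, beside 0.864% and 3.45% of all genes. At an unadjusted p under 0.05 the limma fit had 2 lower members, Bnip3 and Bak1, and 0 higher, out of 9, where 23.6% of all genes in either direction met this level. After median-ratio scaling no member passed, beside 2.45% higher and 2.60% lower genes, and the same 2 genes, Bnip3 and Bak1, had an unadjusted p under 0.05, as did 23.3% of all genes. No member passed with a log2 fold change beyond 1, which 0.239% of genes did upwards and 0.542% downwards. The median log2 fold change of the members equalled that of all genes, at -0.13.

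Bnip3 measured 15.4, 22.2 and 15.8 RPKM in E10.5 Ctrl and 9.05, 7.33 and 12.2 RPKM in cKO. All cKO libraries were below all Ctrl libraries. The log2 fold change was -0.91 ± 0.199 (limma adjusted p = 0.0398), and -0.79 ± 0.203 after median-ratio scaling (limma adjusted p = 0.0591). The call was kept by limma without cKO replicate 3 (0.0159) and lost without Ctrl replicate 1 (0.0804), 2 (0.0767) or 3 (0.106), cKO replicate 1 (0.1) or cKO replicate 2 (0.113). Its direction was the same in all of these fits, with log2 fold changes of -1.10 to -0.74. After median-ratio scaling Bnip3 passed without cKO replicate 3 (limma adjusted p = 0.0316) and not without any of the 5 other libraries.

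Bak1 measured 19.4, 13.9 and 16.0 RPKM in E10.5 Ctrl and 11.4, 11.4 and 12.7 RPKM in cKO. The groups did not overlap, but the log2 fold change of -0.46 (95% interval -0.76 to -0.15) missed the threshold (limma adjusted p = 0.085). Bcl2l11 was also without overlap, at 3.47, 3.63 and 4.16 RPKM in Ctrl and 2.78, 3.40 and 2.91 RPKM in cKO, and its adjusted p by limma was 0.27.

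The antiapoptotic genes were close between the E10.5 groups. Bcl2 measured 3.65, 4.60 and 4.36 RPKM in Ctrl and 5.02, 4.65 and 4.40 RPKM in cKO, with a log2 difference of 0.16 (95% interval -0.16 to 0.48). Mcl1 measured 30.6, 22.3 and 24.9 RPKM in Ctrl and 23.8, 23.9 and 31.1 RPKM in cKO, with a log2 difference of 0.02 (95% interval -0.32 to 0.36). Bcl2l1 measured 9.59, 8.53 and 10.3 RPKM in Ctrl and 8.89, 11.1 and 11.8 RPKM in cKO. The groups overlapped for each of these genes.

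The remaining members at E10.5 overlapped between groups as well. Casp8 measured 8.12, 4.46 and 5.57 RPKM in Ctrl and 4.70, 5.81 and 6.09 RPKM in cKO, with a log2 difference of -0.09 (limma adjusted p = 0.826) that was 0.03 after median-ratio scaling. Casp9 measured 3.41, 3.25 and 4.00 RPKM in Ctrl and 2.96, 3.53 and 3.19 RPKM in cKO (limma adjusted p = 0.636). Bid measured 1.97, 2.19 and 1.67 RPKM in Ctrl and 0.992, 1.11 and 2.03 RPKM in cKO. Only cKO replicate 3 of Bid lay within the Ctrl range, and the log2 difference was -0.53 (95% interval -1.17 to 0.12, limma adjusted p = 0.3).

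The knockout effect was compared between the stages as a difference of the within-stage log2 fold changes, in 1 limma fit over the 12 samples. Of the 7 members tested at both stages, 5 differed, beside 68.7% of all 8909 genes. After median-ratio scaling 5 differed as well, beside 53.0% of all genes. The adult effect exceeded the embryonic one for Bcl2 by 2.35 ± 0.230 (limma adjusted p = 1.86e-06) and for Bnip3 by 1.66 ± 0.325 (limma adjusted p = 0.000514). Both held after median-ratio scaling, with 1.72 (adjusted p = 0.000111) for Bcl2 and 0.96 (adjusted p = 0.0264) for Bnip3. The Bak1 effect differed by 1.0 as deposited (limma adjusted p = 0.000319) and by 0.31 after median-ratio scaling (adjusted p = 0.108). For Mcl1 the difference was -0.43 (limma adjusted p = 0.0495) and -1.12 after median-ratio scaling (adjusted p = 1.95e-05). For Casp9 the difference was 0.60 (limma adjusted p = 0.0372) and -0.07 after median-ratio scaling (adjusted p = 0.827). Bcl2l1 at -1.13 and Bcl2l11 at -0.95 passed only after median-ratio scaling, with limma adjusted p-values of 0.00133 and 0.0105. The stages differ in tissue, Cre driver and time since deletion, which cannot be told apart from age.

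Ratios of 2 genes within 1 library do not depend on the scaling, and they are given as descriptions. The summed RPKM of Bcl2, Bcl2l1 and Mcl1 over that of the effectors Bax and Bak1 was 5.53, 5.62 and 5.73 in adult Ctrl and 2.11, 1.99 and 2.17 in icKO. For these 5 genes every icKO library had a lower ratio than any Ctrl library. With the antiapoptotic gene Bcl2l2 and the effector gene Bok added to the sums, the ratio was 6.39, 6.36 and 6.66 in adult Ctrl and 2.50, 2.48 and 2.53 in icKO. At E10.5 this ratio was 1.35, 1.45 and 1.42 in Ctrl and 1.43, 1.32 and 1.96 in cKO, with overlap, and the wider sums gave 1.28 to 1.37 and 1.25 to 1.60.

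Bcl2 made up 0.764, 0.847 and 1.42% of the antiapoptotic sum in adult Ctrl and 7.92, 7.66 and 7.39% in icKO. Mcl1 remained the largest of the 3 in every adult library, at 64.1 to 72.5% in Ctrl and 60.2 to 62.8% in icKO. The ratio of Bcl2 to Mcl1 was 0.0114 to 0.0196 in adult Ctrl and 0.123 to 0.126 in icKO. At E10.5 it was 0.119 to 0.206 in Ctrl and 0.141 to 0.211 in cKO. The stages differ in tissue, so the size of a ratio was compared within a stage only. Bax over Bak1 was 0.631 to 0.927 in adult Ctrl and 1.45 to 1.83 in icKO, and at E10.5 it was 0.676 to 0.765 in Ctrl and 0.907 to 1.62 in cKO. At both stages the Bax to Bak1 ratio was higher in all knockout libraries. The ratio of Bnip3 to Mcl1 went in opposite directions at the 2 stages, from 0.504 to 0.993 in E10.5 Ctrl down to 0.307 to 0.391 in cKO, and from 0.608 to 1.11 in adult Ctrl up to 1.64 to 1.73 in icKO.

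**Figure D3:**
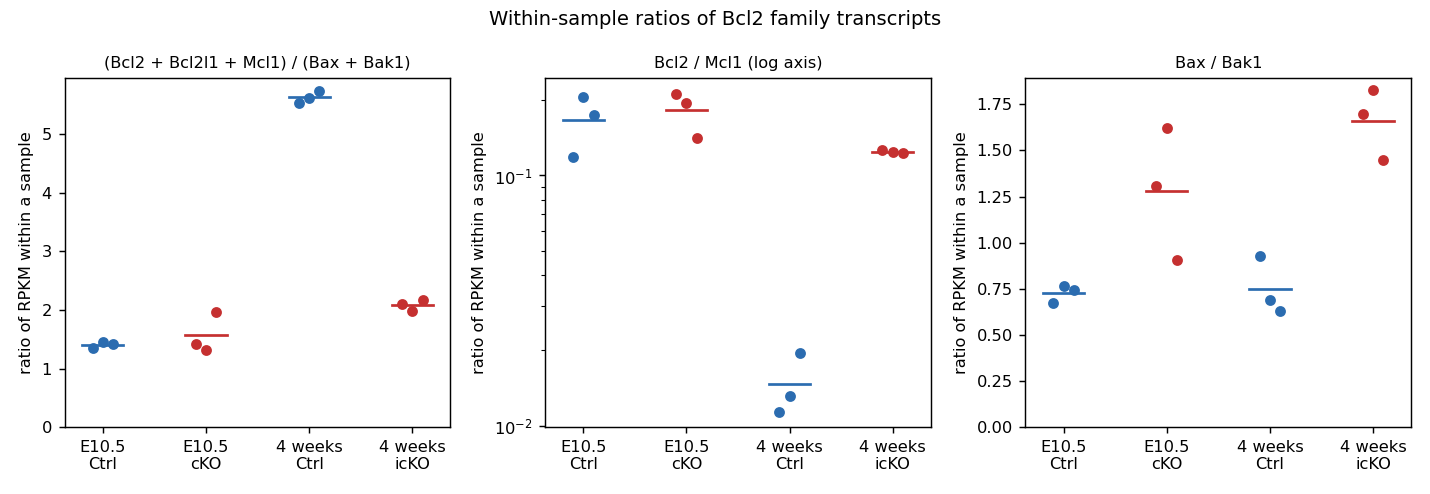
Ratios of RPKM within each sample for the antiapoptotic over the effector genes, for Bcl2 over Mcl1 (log axis) and for Bax over Bak1; dots are samples and lines are means of 3. Among the adult samples, Ctrl have antiapoptotic to effector ratios of 5.53 to 5.73, and icKO lie at 1.99 to 2.17.

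A list of 44 other apoptosis genes placed the members in their pathway. In adult cardiomyocytes 21 of them were tested by limma, of which 14 were higher and 3 lower as deposited, and 8 higher and 6 lower after median-ratio scaling. Their median log2 fold change was 0.58 beside 0.57 for all genes, and the shares of all genes called are those given above for the members. Bax, the effector partner of Bak1, measured 5.25, 4.80 and 3.54 RPKM in Ctrl and 14.1, 16.0 and 13.9 RPKM in icKO, a log2 difference of 1.69 by limma (adjusted p = 8.18e-06) that was 1.16 after median-ratio scaling (adjusted p = 0.000157). Each of the 3 BH3-only genes of this list that were tested was higher under both scalings. The log2 fold changes as deposited and after median-ratio scaling were 1.55 and 1.01 for Bad and 1.05 and 0.53 for Bik. They were 1.34 and 0.81 for Bnip3l, the mitophagy relative of Bnip3. The BH3-only members differed from these, as Bcl2l11 fell under both scalings and Bnip3 was called higher only as deposited. Of all genes tested, 60.6% were higher as deposited and 34.7% after median-ratio scaling. The median-ratio call of Bik (limma adjusted p = 0.0417) was kept without Ctrl replicate 3 (0.0306) or icKO replicate 1 (0.0193) and lost without Ctrl replicate 1 (0.129), Ctrl replicate 2 (0.0959), icKO replicate 2 (0.142) or icKO replicate 3 (0.0679).

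Among death receptor genes, Tnfrsf1a, the receptor of tumour necrosis factor, rose by 2.32 on the log2 scale (adjusted p = 7.65e-07 by limma) and by 1.79 after median-ratio scaling, and its adaptor gene Tradd by 1.89 and 1.41. Cflar, whose product FLIP restrains caspase 8, rose by 1.19 as deposited and 0.67 after median-ratio scaling, while Fas fell by 0.77 and 1.29 on the log2 scale. These 4 were named because they passed under both scalings by limma, so their passing is no separate result. The other tested gene of this group, Fadd, rose by 0.57 as deposited (limma adjusted p = 0.0013). It stood at 0.04 after median-ratio scaling (limma adjusted p = 0.756). Of the mitochondrial factors, Htra2 rose by 1.25 (0.71 after median-ratio scaling), and Cycs, the cytochrome c gene, fell from 29.9, 27.9 and 31.0 RPKM to 17.8, 18.2 and 19.1 RPKM (log2 fold change -0.69, limma adjusted p = 4.8e-05, and -1.22 after median-ratio scaling). Casp6, an executioner caspase gene, fell by 0.78 on the log2 scale (limma adjusted p = 0.00434) and by 1.28 after median-ratio scaling. The caspase inhibitor gene Xiap rose by 0.56 as deposited (limma adjusted p = 0.00107) and stood at 0.03 after median-ratio scaling. The apoptosome scaffold gene Apaf1 and the BH3-only gene Bbc3 were below the filter in adult cardiomyocytes, with mean levels in Ctrl and icKO of 0.320 and 0.671 RPKM for Apaf1 and 0.406 and 0.677 RPKM for Bbc3.

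**Figure D4:**
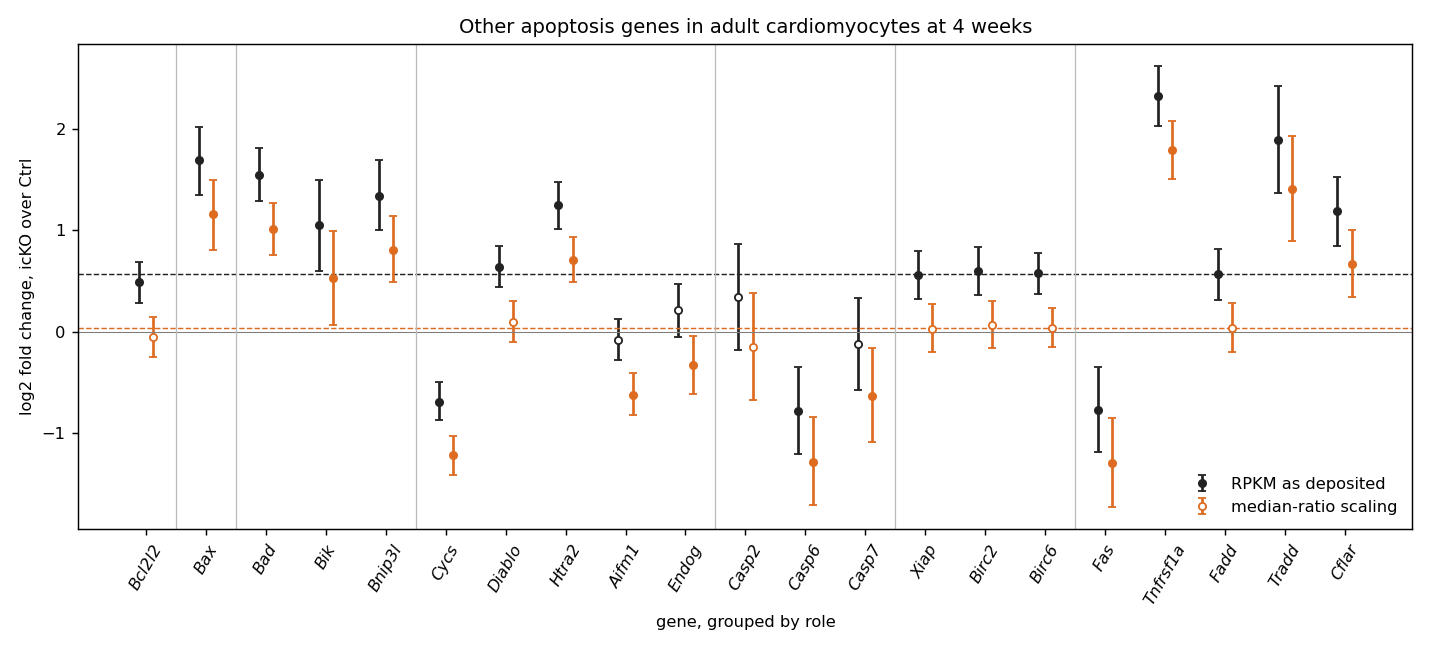
Log2 fold change (icKO over Ctrl, adult cardiomyocytes) with 95% confidence intervals from limma for the 21 tested genes of the list of other apoptosis genes, grouped by role between the vertical lines. Black is RPKM as deposited and orange is median-ratio scaling; filled dots have an adjusted p under 0.05 and dashed lines mark the median gene. Tnfrsf1a (2.32) and Tradd (1.89) have the highest values, and Cycs, Casp6 and Fas lie below 0.

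At E10.5, 29 of these 44 genes were tested and 0 passed by limma as deposited, 7 having an unadjusted p under 0.05, of which 5 were lower, beside 23.6% of all genes. After median-ratio scaling 1 passed, Apaf1, at a log2 difference of 0.59 by limma (adjusted p = 0.0203) against 0.47 (adjusted p = 0.0607) as deposited. Under that scaling Apaf1 passed by limma without cKO replicate 1 (0.0498) or 3 (0.0283) and not without Ctrl replicate 1 (0.0669), 2 (0.0538) or 3 (0.0864) or cKO replicate 2 (0.0725). Apaf1 measured 6.44, 6.01 and 5.64 RPKM in Ctrl and 7.83, 8.15 and 9.17 RPKM in cKO, so the groups did not overlap. Without cKO replicate 3, Tnfrsf10b passed as deposited (limma adjusted p = 0.0414), a gene named after its value was seen. Bax, Cycs and Xiap did not pass at E10.5, with log2 differences of 0.31, -0.44 and 0.03 by limma. Bbc3 was under the filter, at 0.831, 0.095 and 0.939 RPKM in Ctrl and 0.633, 1.69 and 0.992 RPKM in cKO.

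In bulk RNA, fewer cells of a type and less RNA per cell cannot be told apart, and some cell type markers differed between the adult groups. Of all genes tested in the adult, 60.6% were higher and 18.1% lower as deposited. After median-ratio scaling the shares were 34.7% and 33.5%. The summed level of 7 cardiomyocyte markers was 16726.6 to 18037.8 RPKM in Ctrl and 6512.2 to 8319.3 RPKM in icKO, with 6 markers lower and 1 higher under both scalings. The 6 fibroblast markers summed to 4.14 to 6.88 RPKM in Ctrl and 26.6 to 43.2 RPKM in icKO, and the 3 tested were higher as deposited, 2 after median-ratio scaling. The 5 endothelial markers summed to 7.52 to 17.9 and 19.2 to 30.2 RPKM, of which 3 were higher as deposited and 1 after median-ratio scaling. These endothelial counts do not exceed the shares of all genes. The 5 leukocyte markers summed to 1.78 to 2.71 and 3.60 to 6.50 RPKM. The 1 tested was higher as deposited and did not pass after median-ratio scaling, and 1 gene cannot be set against those shares. The 4 mural markers summed to 60.1 to 67.6 and 20.3 to 41.8 RPKM. Of these, 2 were higher and 1 lower as deposited, and 1 and 1 after median-ratio scaling. Only Abcc9 brought the mural sum down, from an average of 55.1 to 4.97 RPKM. Averages of the other mural markers went up: Rgs5 from 6.47 to 14, Pdgfrb from 0.963 to 2.44 and Cspg4 from 1.52 to 7.42 RPKM. The mural sum therefore does not show that the mural markers fell as a set. No marker on these lists was at 0 throughout the adult or the embryonic samples. At E10.5 none of the 7 cardiomyocyte markers passed by limma, with sums of 4202.1 to 5445.2 RPKM in Ctrl and 3349.2 to 3953.6 RPKM in cKO. Leukocyte markers summed to 8.51 to 11.2 RPKM in E10.5 Ctrl and 4.87 to 6.76 RPKM in cKO, with 1 of 2 tested lower under both scalings. Lyz2 carried most of that fall, from an average of 7.72 to 3.77 RPKM. Cd68 (1.67 and 1.57 RPKM) and Csf1r (0.405 and 0.411 RPKM) were close between Ctrl and cKO. Ptprc and Adgre1 averaged at most 0.047 RPKM. The leukocyte sum therefore does not show that these markers fell as a set. Erythroid markers summed to 16.0 to 43.8 RPKM in E10.5 Ctrl and 28.9 to 144.1 RPKM in cKO. Of the 4 epicardial markers, which summed to 39.8 to 45.7 RPKM in E10.5 Ctrl and 30.6 to 45.2 RPKM in cKO, 1 was lower as deposited but missed the threshold after median-ratio scaling. Of the 5 endothelial markers at E10.5, 1 passed as higher after median-ratio scaling but not as deposited. Of all genes tested at E10.5, 3.45% were lower as deposited and 2.45% higher after median-ratio scaling. The part of these cell types in the values of Bcl2, Mcl1, Bnip3 and the other members was not tested.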

How the data were processed

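RNA-seq was measured in 12 samples, 3 per group. Per the submitters' processing notes the tools were cutadapt 2.6, STAR 2.5.3a, HOMER 4.11.1 and DESeq2 1.12.4 on mm10. The authors deposited RPKM per gene, with 1 table per stage, and their own fold change and FDR columns, which were not used. Groups came from the sample titles. Values were analysed with limma 3.58.1 in R 4.3.3 after adding 0.1 and taking log2, keeping genes whose mean exceeded 1 RPKM, with a trended empirical Bayes prior and Benjamini-Hochberg adjustment over all tested genes. Depth was estimated from the spacing of low RPKM values, of which 67.3 to 74.6% came out as whole reads to a tolerance of 0.1 (20% being the chance share), so counts were not recovered. Intervals cover the spread between samples. The fitting code was checked on simulated data. Alternatives changed the pseudocount, filter, scaling, prior, block and replicates. Leaving out replicates under median-ratio scaling and the ratio with Bcl2l2 and Bok were added after seeing the data. The members and lists were chosen with earlier results of these data known. Named genes were all members, Med30, Bax, Bbc3, Apaf1, Cycs, Xiap, 1 gene that is not reported here, and per stage up to 8 listed genes per direction with an adjusted p under 0.05 under both scalings. Apaf1 passed under 1 scaling only at E10.5. Fadd, Tnfrsf10b and the single mural and leukocyte markers were named outside this rule.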

Additional observations from a re-analysis of the deposited data

Results flagged for a closer look

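The knockout effects of 5 of the 7 members tested differed between adult cardiomyocytes at 4 weeks and E10.5 hearts by limma's interaction test on RPKM as deposited, the adult log2 fold change minus the embryonic one. Of all 8909 genes tested, 68.7% differed as well, so the count is near the share of all genes and no trait of the members. For Bcl2 the difference was 2.35 (95% interval 1.85 to 2.84), for Bnip3 1.66 (0.96 to 2.36) and for Bak1 1.0 (0.60 to 1.40), and these passed in all 12 fits that left out 1 library. For Bnip3 the estimates at the stages had opposite signs. After median-ratio scaling neither passed by limma, at 0.22 in the adult (95% interval -0.28 to 0.71) and -0.79 at E10.5. For Casp9 the difference was 0.60 (0.09 to 1.11), which passed in 6 of 12 such fits, with adjusted p-values by limma of 0.0173 to 0.0959. For Mcl1 it was -0.43 (-0.82 to -0.04), which passed in 3 of 12, with adjusted p-values by limma of 0.00949 to 0.118. For Mcl1 those 3 fits left out E10.5 Ctrl replicate 1, cKO replicate 1 or cKO replicate 2. After median-ratio scaling the differences of Bcl2, Bnip3 and Mcl1 passed and those of Bak1 and Casp9 did not.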

How the results depend on the processing

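Of 672 recomputed log2 fold changes of named genes, 615 kept their direction and side of the threshold, 33 lost the call, 9 gained it and 15 changed sign. Some of these genes were named for passing under both scalings, so their agreement under median-ratio scaling was fixed in advance. Values that passed in neither fit also count as kept where the direction held, so the tally is a description only. The Bcl2 rise and Mcl1 fall at 4 weeks passed under each of the 10 planned settings and each left-out replicate. The sign changed for Mcl1 at E10.5 without Ctrl replicate 2 (-0.08) or 3 (-0.01) or cKO replicate 3 (-0.11, range -0.11 to 0.14), and for Bik at E10.5 without Ctrl replicate 3 (-0.08, range -0.08 to 0.62). It changed for Casp8 at E10.5 with median-ratio scaling (0.03, also with the replicate block), quantile normalization (0.02), leaving the 20 most abundant genes out of the scaling (0.08), and without Ctrl replicate 1 (0.14) or cKO replicate 1 (0.02, range -0.29 to 0.14). It also changed for Casp9 and Tnfrsf1a at E10.5 without the 20 genes (0.04 and 0.05), for Bak1 at 4 weeks with quantile normalization (-0.02) and for Casp9 at 4 weeks with median-ratio scaling (-0.05, also with the block). The cause was not tested.

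At E10.5 the 1 member called, Bnip3, became 0 with no RPKM filter, median-ratio scaling with or without the block, quantile normalization, scaling without the 20 genes and no prior trend, and 0 to 1 without 1 replicate. Other apoptosis genes called there went from 0 to 1 with each of the 3 rescalings and the block with median-ratio scaling, and 0 to 1 without 1 replicate. All genes higher at E10.5 numbered 94, and 35 with no filter, 267 with median-ratio scaling, 307 with quantile normalization, 409 without the 20 genes, 30 with no trend, 170 with the block and median-ratio scaling, and 9 to 107 without 1 replicate. All genes lower numbered 376, and 112 with no filter, 210 without the 20 genes, 99 with no trend, 170 with the block and median-ratio scaling, and 19 to 583 without 1 replicate.

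At 4 weeks the members higher went from 4 to 1 with median-ratio scaling, with or without the block, and quantile normalization. The members lower went from 2 to 1 with no filter and ranged from 1 to 2 without 1 replicate. Other apoptosis genes higher went from 14 to 22 with no filter and to 8 with median-ratio scaling, the block with it and quantile normalization, and those lower from 3 to 6 with median-ratio scaling and 5 with the block as well. All genes higher went from 5765 to 3299 with median-ratio scaling, 3530 with quantile normalization and 3258 with the block and median-ratio scaling, and all genes lower from 1727 to 3186, 3005 and 3163. Members whose effect differed between stages went from 5 to 3 with the replicate block and ranged from 3 to 5 without 1 replicate.

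Whether replicate numbers pair the samples was not settled. Same-numbered deviations correlated at 0.0124, 0.101 and -0.0698 at E10.5 and 0.153, 0.0433 and 0.045 at 4 weeks. Not every sample correlated best with its own number. Deviations from a mean of 3 samples depend on each other, so these values cannot exclude pairing. With the replicate block alone 1 member was called at E10.5 and 5 at 4 weeks, Casp9 being lost (adjusted p = 0.0551 by limma). Bid and Casp8 had at most 12.6 and 18.2 estimated reads per adult library.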
